A study of Rattus norvegicus with 9 samples.

Results

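The transcripts described here are those of 4 cytosolic calcium-buffering proteins, S100g, Calb1, Calb2 and Pvalb. Members were the probe sets whose platform annotation gives exactly 1 gene symbol, that of a listed gene. Each gene had 1 such probe set, so 4 of 20826 singly named probe sets and 4 of 14217 named genes were described. S100g was chosen by its measured signal, for a level that was high in the late pubertal arrays, and the other members are buffers of the same protein superfamily. Its values are therefore given as a description, with no test.

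Hypothalami of female rats with normal sexual development were measured on Affymetrix arrays at 3 stages, juvenile (day 26), early pubertal (day 29) and late pubertal (day 31), with 3 arrays per stage. Per the labels, juvenile rats served as controls, every array holds the hypothalamus of a single animal, and no treatment or altered allele is named for any group. Stage and age change together, so pubertal stage and 2 to 5 days of growth cannot be told apart. The tissue is bulk, so more transcript per cell and more cells of a type cannot be told apart for any gene below.

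Cytosolic calcium buffers bind the calcium that enters a cell and so limit the height and spread of its signal. All 4 proteins bind calcium through EF-hands, paired helices around a calcium-binding loop. S100g encodes calbindin-D9k, which carries calcium across intestinal and uterine epithelium and is known to respond to vitamin D and to estrogen there. Calb1 encodes calbindin-D28k, Calb2 calretinin and Pvalb parvalbumin, and brain anatomists use all 3 as markers of neuron classes, many of them releasing gamma-aminobutyric acid (GABA).

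The median deposited signal ran from 102 to 113 on day 26, from 79.8 to 101 on day 29 and from 102 to 122 on day 31, with early pubertal replicate 10 the dimmest. Levels below are log2(signal + 16), quantile-normalized between arrays unless called deposited. Arrays correlated at r = 0.967 to 0.979 over probe sets, and none held the values of another. Of the hypothalamic markers, 18 of 22 were on the array and 13 lay above the signal filter, among them the peptide genes Hcrt, Pmch, Oxt, Avp and Trh. Gnrh1 and Pomc, which also define hypothalamic neurons, lay below the filter.

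S100g stood higher in every late pubertal array than in any other. Its deposited signals were 73.3, 67.9 and 57.5 in the juvenile animals, replicates 1, 2 and 3. Early pubertal replicates 7, 8 and 10 gave 102, 52.5 and 24.6. Late pubertal replicates 12, 14 and 20 gave 128, 191 and 192. Juvenile arrays lay close together, and early pubertal arrays lay on both sides of them.

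After normalization S100g averaged 6.30 ± 0.099 on day 26, 6.24 ± 0.62 on day 29 and 7.45 ± 0.25 on day 31 on the log2 scale (SD, n = 3 each). The late pubertal level stood 1.15 ± 0.27 (SE) above the juvenile level on the log2 scale, a 2.22-fold difference. It stood 1.21 ± 0.27 above the early pubertal level, a 2.31-fold difference. Among 18625 tested probe sets these differences ranked number 5 and number 9 from the top, as the choice of the gene makes likely. Arrays of both stages did not overlap with late pubertal arrays higher for 5.90% of tested probe sets against juvenile and 5.97% against early pubertal animals, S100g among them in both. With 1 array left out in turn the difference ran from 1.03 to 1.28 against juvenile and from 0.913 to 1.53 against early pubertal animals, which supports nothing, since these values chose the gene.

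For early pubertal against juvenile animals the log2 difference of S100g was −0.059 ± 0.27 (SE, n = 3 each), given with no test because the gene passed the signal filter only through the late pubertal arrays. The early pubertal spread was wide, at 6.89, 6.18 and 5.65 in replicates 7, 8 and 10 on the log2 scale, and the sign rested on replicate 10. Without replicate 10 the difference was 0.24.

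S100g is a dim probe set, and no detection calls were used. Its mean over juvenile and early pubertal arrays, 6.27 on the log2 scale, lay under the filter level of 6.30, so it entered the fit only through the late pubertal arrays. Its late pubertal difference from juvenile was 0.81 with a constant of 64 before the log and 1.33 with a constant of 1. The size of the fold thus depended on the constant.

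**Figure D1:**
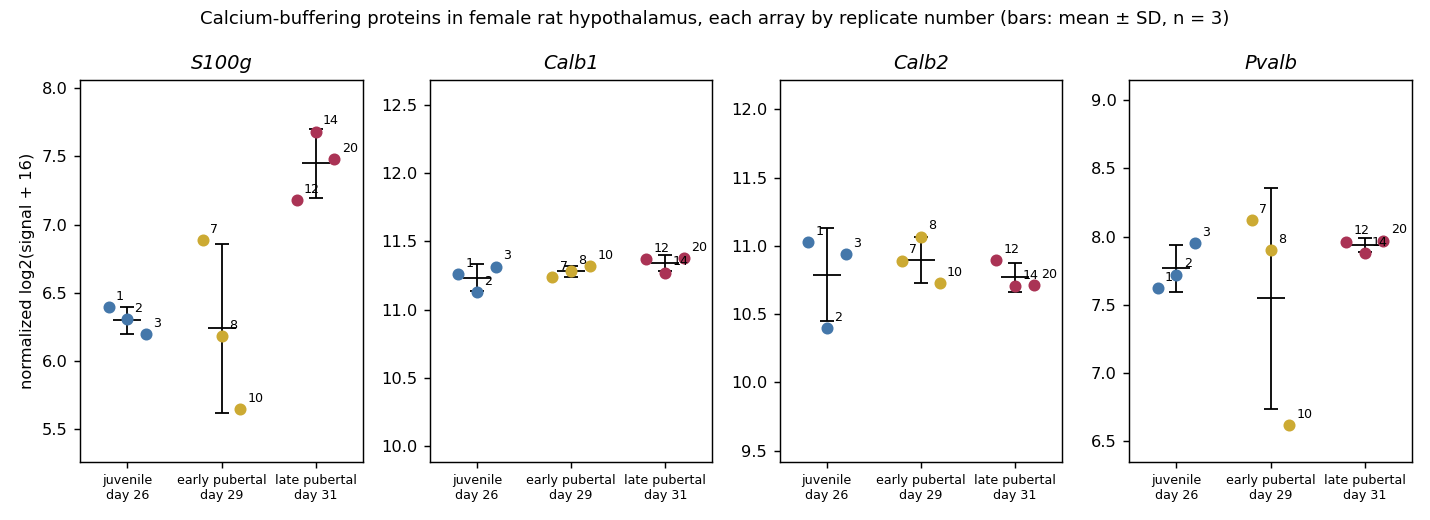
Normalized log2(signal + 16) of S100g, Calb1, Calb2 and Pvalb (vertical axes, each spanning the same range around the gene's own mean) on the 9 arrays by stage and age in days; points are arrays with their replicate numbers, bars are mean ± SD (n = 3). The 3 late pubertal arrays of S100g lie above all others, early pubertal replicate 10 is low for S100g and Pvalb, juvenile replicate 2 is low for Calb2, and Calb1 stays within a narrow band.

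Calb1 had the smallest SE of the 4 members and differed little between stages. Its deposited signals were 2839, 2289 and 2475 in the juvenile animals, replicates 1, 2 and 3. Early pubertal replicates 7, 8 and 10 gave 2333, 2232 and 2244. Late pubertal replicates 12, 14 and 20 gave 2576, 2479 and 3014. The deposited ranges overlap between late pubertal and juvenile arrays but not between late and early pubertal arrays, where differences in overall array brightness are still included. Calb1 averaged 11.23 ± 0.096 on day 26, 11.28 ± 0.040 on day 29 and 11.34 ± 0.059 on day 31 on the normalized log2 scale (SD, n = 3 each).

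The normalized Calb1 difference of late pubertal from juvenile animals was 0.10 ± 0.063 (SE, n = 3 each), with a 95% interval of −0.034 to 0.24 and a limma adjusted p of 0.9998. In fold terms this interval reaches from 0.977 to 1.18, which leaves out a change of the size seen in S100g. Early pubertal animals differed from juvenile by 0.045 ± 0.063 on the log2 scale (interval −0.094 to 0.18, limma adjusted p 0.994). Late pubertal differed from early pubertal animals by 0.060 ± 0.063 (interval −0.078 to 0.20, limma adjusted p 0.929). The early pubertal sign turned at the deposited level, to −0.15, and without juvenile replicate 2, to −0.00838.

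Calb2, calretinin, varied more within the juvenile stage than between stages. Deposited signals were 2441, 1386 and 1901 in the juvenile animals, replicates 1, 2 and 3. Early pubertal replicates 7, 8 and 10 gave 1845, 1870 and 1445. Late pubertal replicates 12, 14 and 20 gave 1839, 1677 and 1911. Juvenile replicates held both the highest and the lowest array of all, and every pair of stages overlapped.

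On the normalized log2 scale Calb2 averaged 10.79 ± 0.34 on day 26, 10.90 ± 0.17 on day 29 and 10.77 ± 0.11 on day 31 (SD, n = 3 each). Late pubertal differed from juvenile animals by −0.017 ± 0.14 (SE; interval −0.33 to 0.30, limma adjusted p 0.9998). Early pubertal differed from juvenile animals by 0.11 ± 0.14 (interval −0.20 to 0.42, limma adjusted p 0.994). Late pubertal differed from early pubertal animals by −0.13 ± 0.14 (interval −0.44 to 0.19, limma adjusted p 0.931).

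These small values moved with single arrays. Without juvenile replicate 2 Calb2 stood at −0.21 for late pubertal against juvenile and at −0.086 for early pubertal against juvenile animals. Without juvenile replicate 1 the same differences were 0.10 and 0.23, and without juvenile replicate 3 the first was 0.059. Juvenile replicate 2, the lowest array for Calb2, had the highest deposited signal of Tshb, the beta subunit of thyrotropin made by the pituitary and its stalk, at 597, against 76.9 and 77.5 in juvenile replicates 1 and 3. It also had the highest Cga, the shared alpha subunit of the pituitary glycoprotein hormones, at 2345, against 1213 and 1595. Its sum over all pituitary markers, 4161, was the highest of the 9 arrays, but the markers did not move together. Chga (1035 against 1480 and 1320), Lhb (135 against 166 and 143), Fshb (59.7 against 68.8 and 74.4) and Pou1f1 (7.77 against 26.5 and 26.9) were lower in it. The summed striatal markers of juvenile replicate 2, at 3869, and its cortical and hippocampal markers, at 3019, were the lowest of the 9 arrays. So were the mean log2 deviations of the markers above the filter, at −0.20 and −0.24. Single markers went the other way. Deposited signals of the dim cortical genes Tbr1 (66.6) and Neurod2 (61.4) were the highest of the 9 arrays. Those of striatal Rgs9 (253) and Rarb (218) were the highest of the juvenile arrays. The part of these tissues in the Calb2 value was not tested.

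Pvalb, parvalbumin, was set apart by 1 low array. Its deposited signals were 208, 206 and 230 in the juvenile animals, replicates 1, 2 and 3. Early pubertal replicates 7, 8 and 10 gave 258, 195 and 63.6. Late pubertal replicates 12, 14 and 20 gave 230, 222 and 278. Early pubertal replicate 10 lay below every other array, while replicate 7 of the same stage was the second highest. The low array also had the highest summed markers of leptomeninges (20011), choroid plexus (7567) and ependyma and tanycytes (6739) and the lowest of thalamus (6806) of the 9 arrays. Mean log2 deviations of the markers above the filter, at 0.39, 0.20 and 0.19 in the first 3 lists, were also the highest. Deposited ependymal Foxj1 (83.1) and choroid plexus Otx2 (7.29), Kcne2 (24.3) and Kcnj13 (20.4) were the lowest of the 9 arrays. This array is the dimmest, so these deposited signals cannot be set against the normalized sums. The part of these tissues in its Pvalb value was not tested.

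Pvalb averaged 7.77 ± 0.17 on day 26, 7.55 ± 0.81 on day 29 and 7.94 ± 0.052 on day 31 on the normalized log2 scale (SD, n = 3 each). Late pubertal stood 0.39 ± 0.30 above early pubertal animals (SE; interval −0.26 to 1.04, limma adjusted p 0.914). Without early pubertal replicate 10 the same difference was −0.073 (limma adjusted p 0.930). Early pubertal differed from juvenile animals by −0.22 ± 0.30 (interval −0.87 to 0.43, limma adjusted p 0.994), and by 0.24 without that array (limma adjusted p 0.913). Late pubertal differed from juvenile animals by 0.17 ± 0.30 (interval −0.48 to 0.82, limma adjusted p 0.9998). The low array does not enter this difference itself. It does enter the SE, interval and p, because the fit pools the spread over all stages. Without early pubertal replicate 10 the difference was also 0.17, with an SE of 0.13.

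**Figure D2:**
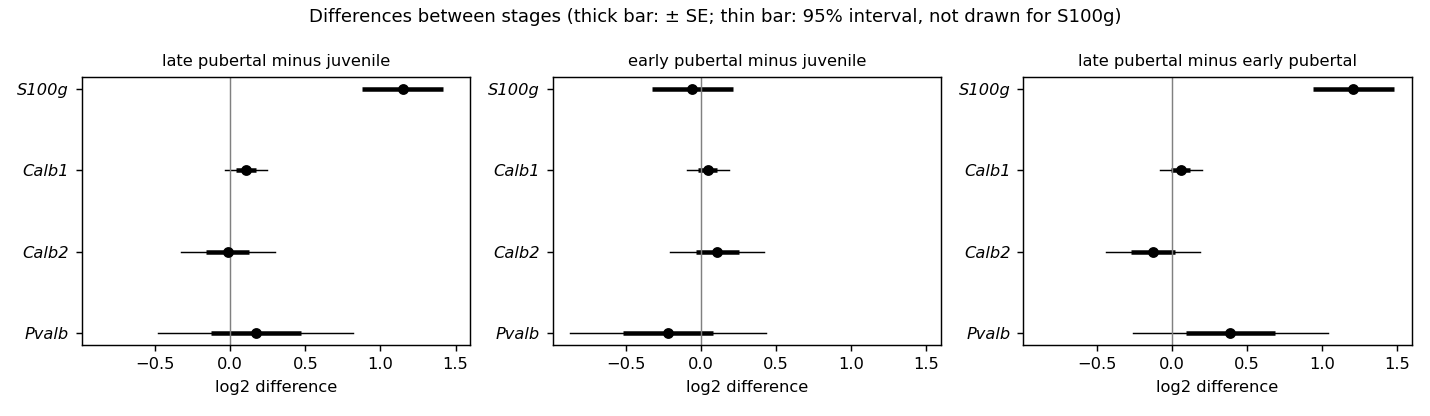
Log2 differences (horizontal axes) of the 4 members for late pubertal minus juvenile, early pubertal minus juvenile and late pubertal minus early pubertal animals; points are the fitted values, thick bars ± SE and thin bars 95% intervals from limma. All drawn intervals include 0, and the intervals of Calb1 are the narrowest; none is drawn for S100g, which was not tested.

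Limma with Benjamini-Hochberg adjustment called 0 of the 9 comparisons of Calb1, Calb2 and Pvalb, against 0% of all 18625 tested probe sets in each of the 3 comparisons. None of the 9 reached an unadjusted limma p under 0.05, the lowest being 0.125 for Calb1 in late pubertal against juvenile animals. Over all probe sets, unadjusted limma p under 0.05 was reached by 772 in late pubertal against juvenile, 831 in early pubertal against juvenile and 971 in late against early pubertal animals. The F test over the 3 stages gave adjusted p of 0.974 for Calb1, 0.982 for Calb2 and 0.974 for Pvalb (limma). Arrays of both stages overlapped on the normalized scale in all 9 of these member comparisons, where 11.4%, 8.30% and 11.3% of all tested probe sets did not overlap, in the same order of comparisons. The comparisons share their stages and are not independent of each other.

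The genes whose pattern over the 9 arrays was most like each member were ranked by Pearson r of normalized log2 values. The points share stage, normalization and array, and the ranking picks the highest of all named probe sets, so r is a description. For S100g these were Nop53, a nucleolar factor of ribosome assembly (r = 0.955), Kat14, a subunit of a histone acetyltransferase complex (0.911), Galnt6, which starts mucin-type sugar chains (0.900), Slc35b3, a Golgi transporter of the sulfate donor PAPS (0.899), and Frmd5 (0.895). None of the 5 came near S100g in amplitude: their log2 differences of late pubertal from juvenile animals were 0.16, 0.16, 0.31, 0.25 and 0.30 in that order. Without the 2 arrays farthest from the S100g median, late pubertal replicates 14 and 20, r was 0.941, 0.866, 0.919, 0.951 and 0.734.

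Calb1 was most like Pradc1 (r = 0.962), Fnbp4 (0.926), the prostaglandin D synthase gene Ptgds (0.924), the Egr corepressor gene Nab1 (0.916) and the glycyl-tRNA synthetase gene Gars1 (0.912). Without juvenile replicate 2 and late pubertal replicate 20 these values were 0.844, 0.818, 0.798, 0.909 and 0.672. Ptgds ran only from 12.98 to 13.12 on the normalized log2 scale, and several arrays shared the same value of 13.12, so its r rests on tied values. Calb2 was most like the growth factor gene Fgf1 (r = 0.970), Vcf2 (0.969), Fxyd7, a regulator of the sodium pump (0.966), Zfp706 (0.965) and Uqcrfs1, the iron-sulfur subunit of respiratory complex III (0.956). Without juvenile replicate 2 and late pubertal replicate 14 these were 0.947, 0.902, 0.905, 0.935 and 0.875. All 5 genes alike to Calb2 shared its low value in juvenile replicate 2, at −0.50 for Fgf1 and −0.42 for Fxyd7 from their own means on the log2 scale.

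Pvalb was most like Pdzrn4 (r = 0.962), the ubiquitin ligase gene Ube4b (0.959), Lyrm1 (0.958), Bri3bp (0.958) and the vascular addressin gene Madcam1 (0.948). Early pubertal replicate 10 deviated from the mean of Pdzrn4 by −1.53 and from that of Bri3bp by −0.80 on the log2 scale. Without that array and juvenile replicate 1, r was 0.669, 0.697, 0.657, 0.922 and 0.561, lower than over all 9 arrays for each of the 5 and least so for Bri3bp.

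**Figure D3:**
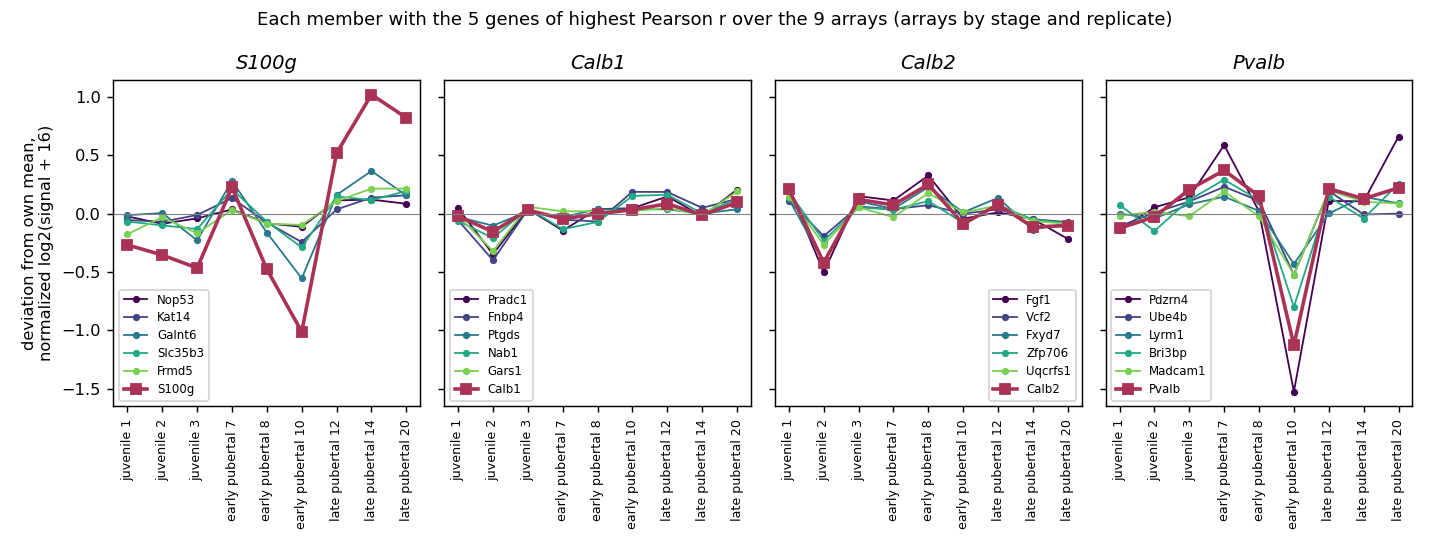
Deviation of normalized log2(signal + 16) from the gene's own mean (vertical axis) on each of the 9 arrays (horizontal axis, by stage and replicate) for each member (squares) and the 5 genes with the highest Pearson r to it (circles). The genes nearest to S100g have a smaller amplitude, and Slc35b3 and Galnt6 are as high in early pubertal replicate 7 as in late pubertal arrays, while those of Calb2 share a dip in juvenile replicate 2, and those of Pvalb share a dip in early pubertal replicate 10.

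The direct neighbours of S100g in gene order on the GRCr8 assembly had negative differences in the late pubertal animals that did not pass the limma test. Ctps2, which encodes a CTP synthase, had a log2 difference of −0.079 ± 0.10 (SE) for late pubertal against juvenile animals. Syap1, on the other side, had one of −0.12 ± 0.11. Necab1, an EF-hand protein gene next but 1 to Calb1, differed by −0.27 ± 0.21. Unadjusted limma p was 0.446, 0.315 and 0.238 for these genes, and the order of genes alone was taken from the assembly.

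Other S100 proteins, EF-hand relatives of S100g that act as sensors more than as buffers, were listed together with S100pbp, which is not one of them. This list had 10 tested genes of 15, and its counts and medians include S100pbp. For late pubertal against juvenile animals 6 differences were positive and 4 negative, with a median of 0.10 on the log2 scale beside −0.00148 over all tested probe sets. Limma passed 0 in each comparison, and 1 of 10 reached an unadjusted p under 0.05 in each. Among all 18625 tested probe sets 772 reached it in late pubertal against juvenile animals. The counts were 831 in early pubertal against juvenile and 971 in late against early pubertal animals. S100a1, which modulates calcium release in muscle, differed by 0.26 ± 0.10 (SE) in late pubertal and by 0.37 ± 0.10 in early pubertal against juvenile animals. S100b, the astrocyte protein, differed by 0.097 ± 0.049 in late pubertal against juvenile animals and S100a16 by −0.074 ± 0.073. S100pbp, which encodes a binding partner of S100 proteins and not a family member, differed by −0.25 ± 0.12 in late pubertal against juvenile animals. It was also the 1 gene of the list with an unadjusted p under 0.05 in late against early pubertal animals (limma p 0.032). No S100 protein gene reached it there. For late against early pubertal animals 1 of the 10 was positive and 9 negative, with a median of −0.076, which turned to 0.14 at the deposited level.

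Other EF-hand buffers and sensors had 24 tested genes of 33 listed. Of these 5 had positive and 19 negative differences in late pubertal against juvenile animals, with a median of −0.042 beside −0.00148 over all tested probe sets. Limma passed 0 of them in each comparison. Unadjusted p under 0.05 was reached by 2 of 24 in late pubertal against juvenile animals. It was reached by 2 in early pubertal against juvenile and by 3 in late against early pubertal animals. Over all 18625 tested probe sets the counts were 772, 831 and 971 in the same order. Ncs1, a neuronal calcium sensor, differed by −0.23 ± 0.10 (SE) and Necab3 by −0.34 ± 0.14 in late pubertal against juvenile animals, both with all late pubertal arrays below all juvenile ones, as 5.52% of tested probe sets were. Efhd1, a mitochondrial EF-hand protein, differed by 0.40 ± 0.14 and Gca, grancalcin, by −0.37 ± 0.13 in early pubertal against juvenile animals.

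Pumps, exchangers, channels and store proteins, which move calcium into or out of the cytosol or hold it in stores, had 30 tested genes of 38 listed. Limma passed 0 in each comparison. Unadjusted p under 0.05 was reached by 0 of the 30 in late pubertal against juvenile animals. It was reached by 3 in early pubertal against juvenile and by 3 in late against early pubertal animals. Over all 18625 tested probe sets the counts were 772, 831 and 971 in the same order. The median difference was −0.016 on the log2 scale in late pubertal against juvenile animals, with 13 positive and 17 negative. Calr, calreticulin of the endoplasmic reticulum, differed by −0.31 ± 0.085 (SE) and Atp2b3, a plasma membrane calcium pump, by 0.24 ± 0.071 in late against early pubertal animals. Orai2, a store-operated channel subunit, differed by −0.24 ± 0.12 in late pubertal against juvenile animals. Slc24a4, a sodium-calcium-potassium exchanger, differed by −0.33 ± 0.15 in late against early pubertal animals.

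Genes of vitamin D signalling and epithelial calcium transport, the setting in which S100g is best known, were mostly too dim to test. Only 4 of 15 listed genes lay above the filter. The vitamin D receptor gene Vdr and the epithelial calcium channel gene Trpv6 lay below it. All 4 tested genes had negative differences in late pubertal against juvenile animals, at −0.099 ± 0.19 (SE) for the channel gene Trpv5, −0.17 ± 0.24 for the calcium-sensing receptor gene Casr, −0.23 ± 0.18 for Rxrb and −0.000988 ± 0.139 for Rxrg, both retinoid X receptors. Limma passed 0 of the 4 in each comparison, and 0 reached an unadjusted p under 0.05.

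Genes of estrogen and progesterone response had 12 tested genes of 23 listed. For late pubertal against juvenile animals 7 differences were positive and 5 negative. For early pubertal against juvenile animals 4 were positive and 8 negative, with a median of −0.045 on the log2 scale. For late against early pubertal animals 9 were positive and 3 negative, with a median of 0.17 beside 0.000367 over all tested probe sets. Limma passed 0 in each comparison. Unadjusted p under 0.05 was reached by 1 of the 12 in late pubertal against juvenile animals. It was reached by 1 in early pubertal against juvenile and by 2 in late against early pubertal animals. Over all 18625 tested probe sets the counts were 772, 831 and 971 in the same order. Greb1, an estrogen receptor cofactor and target, stood at 0.64 ± 0.19 (SE) and the progesterone receptor gene Pgr at 0.45 ± 0.21 for late against early pubertal animals. Against juvenile animals the late pubertal values were smaller, at 0.15 ± 0.19 for Greb1 and 0.16 ± 0.21 for Pgr. Nrip1, a corepressor of nuclear receptors, had 0.29 ± 0.15 for late against early pubertal animals, and Pdyn, the dynorphin precursor, 0.29 ± 0.13 for late pubertal against juvenile animals. The late pubertal median against juvenile was 0.16 and turned to −0.032 with a filter at the 60th percentile. The estrogen receptor genes Esr1 and Esr2 are among the listed genes that were not tested.

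GABA neuron markers, which share cells with Calb1, Calb2 and Pvalb in many brain regions, had 10 tested genes of 16 listed. Late pubertal differences from juvenile were positive for 4 and negative for 6, with a median of −0.072 on the log2 scale. Limma passed 0 in each comparison. Unadjusted p under 0.05 was reached by 3 of the 10 in late pubertal against juvenile animals. It was reached by 1 in early pubertal against juvenile and by 1 in late against early pubertal animals. Over all 18625 tested probe sets the counts were 772, 831 and 971 in the same order. Slc32a1, the vesicular GABA transporter gene, differed by −0.40 ± 0.10 (SE), the GABA synthesis gene Gad1 by −0.14 ± 0.055 and the homeobox gene Dlx1 by −0.37 ± 0.14 in late pubertal against juvenile animals, and Npy by 0.19 ± 0.12. The late pubertal differences of Calb1, Calb2 and Pvalb, at 0.10, −0.017 and 0.17, lay within the range of these markers.

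**Figure D4:**
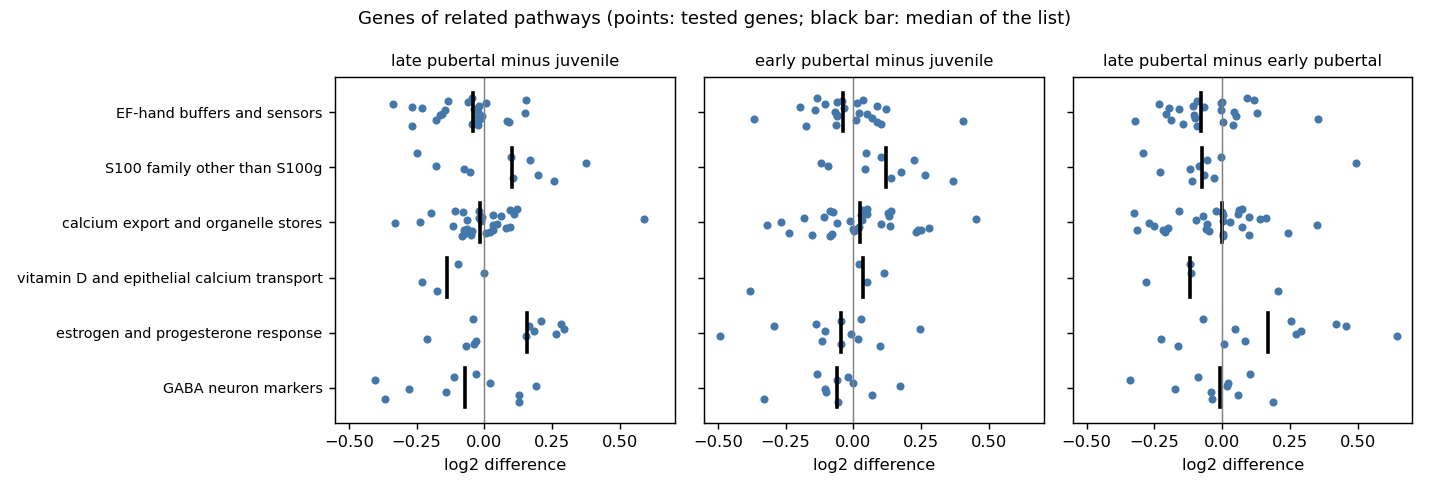
Log2 differences (horizontal axes) of the tested genes of 6 lists (rows) in the 3 comparisons; points are genes, black bars list medians. Most points lie within 0.5 of 0, no gene passed the limma test, and no list gene reaches the 1.15 of S100g in late pubertal against juvenile animals.

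Markers of tissues that border the hypothalamus were set beside S100g and the other members as the summed normalized signal of each list. Anterior pituitary markers, 11 of 15 on the array and 6 above the filter, summed to 2725 to 4161 on day 26, 3148 to 4076 on day 29 and 2700 to 3328 on day 31. Prolactin (Prl), a defining pituitary gene, had a highest deposited signal of 16.9 on any array, and growth hormone (Gh1) one of 52.2, both below the filter. The stages overlapped in the pituitary sums, and their part in the S100g level was not tested. Leptomeninges markers, 15 of 15 above the filter, summed to 13103 to 16007 on day 26, 13596 to 20011 on day 29 and 15562 to 18433 on day 31. All 15 had positive differences for late pubertal against juvenile animals, as did 9228 of all 18625 tested probe sets. The median of the 15 was 0.26 on the log2 scale. Their mean log2 deviation ran from −0.24 in juvenile replicate 3 to 0.39 in early pubertal replicate 10. The list thus shifted with single arrays, and its genes are not separate observations. Of the 15, 5 had no overlap between the arrays of both stages (5.90% of all tested probe sets in this direction). Unadjusted limma p was under 0.05 for 4 of the 15, and 0 passed. Over all 18625 tested probe sets it was under 0.05 for 772, of which 415 had positive differences. Choroid plexus markers, 12 of 14 on the array and 8 above the filter, summed to 5428 to 5702 on day 26, 5502 to 7567 on day 29 and 6203 to 7314 on day 31. Ependyma and tanycyte markers, 12 of 14 on the array and 10 above the filter, summed to 5118 to 5521, 5063 to 6739 and 5661 to 5812 in the order of the stages. Choroid plexus and ependymal sums of late pubertal arrays lay above those of all juvenile arrays, as S100g did. Bright genes weigh most in these sums, Igf2 and Igfbp2 in the first and Vim in the second. Igf2 is also in the leptomeninges list, so the choroid plexus and leptomeninges sums are not independent. For late pubertal against juvenile animals 7 of 8 and 7 of 10 tested markers had positive differences, 1 of each list with no overlap. Another ependymal marker had no overlap in the negative direction. Deposited Folr1 (131 to 164 in juvenile, 104 to 157 in late pubertal arrays) and Otx2 (38.1 to 61.6 and 10.4 to 14.7) did not rise. The choroid plexus gene Ttr overlapped, with deposited signals of 182 to 203 in juvenile and 165 to 468 in late pubertal arrays. Early pubertal replicate 10, the lowest array for S100g, had the highest sums of all for choroid plexus, ependyma and leptomeninges. Deposited Foxj1, Otx2, Kcne2 and Kcnj13 were lowest in it. It is the dimmest array, so these deposited signals cannot be set against the normalized sums. The part of these tissues in the S100g level was not tested.

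Neighbouring forebrain tissues, in which Calb1, Calb2 and Pvalb are also expressed, gave narrower ranges. Striatal markers, 13 of 14 on the array and 12 above the filter, summed to 3869 to 4545 on day 26, 4326 to 4577 on day 29 and 4210 to 4400 on day 31. Thalamic markers, 12 of 13 on the array and 9 above the filter, summed to 6951 to 7167, 6806 to 7026 and 7043 to 7380 in the order of the stages. Cortical and hippocampal markers, 13 of 14 on the array and 5 above the filter, summed to 3019 to 3363, 3113 to 3508 and 3040 to 3256. Stages overlapped in the striatal and cortical sums, and the late pubertal thalamic sums lay above all early pubertal ones. The part of these tissues in the values of the members was not tested. The ratio of 3′ to 5′ beta-actin signal, which rises as RNA degrades, ran from 2.40 to 3.16 on day 26, 2.14 to 2.86 on day 29 and 2.27 to 3.24 on day 31, so the stages overlapped in it. The hexokinase ratio ran from 1.88 to 2.14, 1.56 to 2.84 and 1.89 to 2.14 in the order of the stages. It was highest in early pubertal replicate 7, the highest array of its stage for S100g and Pvalb. The GAPDH ratio ran from 0.948 to 1.02 over all arrays. The part of RNA quality in the values of the members was not tested.

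**Figure D5:**
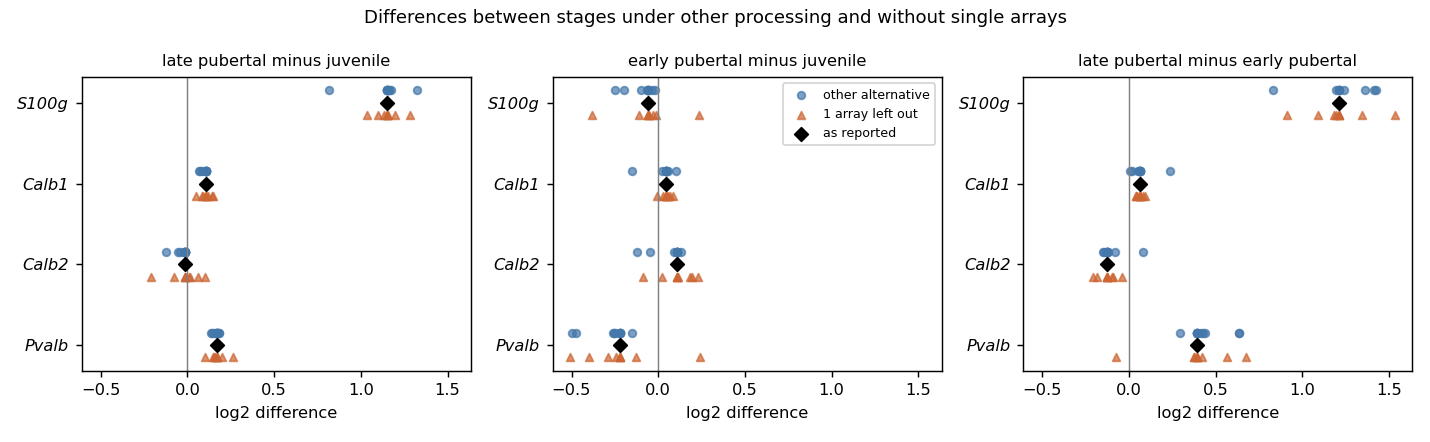
Log2 differences (horizontal axes) of the 4 members in the 3 comparisons as reported (diamonds), under other processing (circles) and with 1 array left out (triangles). The late pubertal values of S100g, which chose the gene, range from 0.81 to 1.53, while the sign of Calb2 in each comparison, and of S100g, Calb1 and Pvalb in some, depends on the setting or on 1 array.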

How the data were processed

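Arrays were grouped by the stage and replicate number in their titles. The deposited values are linear signal intensities per probe set, made by the authors with MAS5 according to the submitters' processing notes, with settings not given in the sources used here. Of 31099 probe sets, 57 controls were left out. Values were taken as log2(signal + 16), quantile-normalized between arrays, and kept where the mean over 9 arrays lay above the 40th percentile, leaving 18625 probe sets. Stages were compared with limma 3.58.1 under R 4.3.3 (1 mean per stage, intensity trend in the variance prior, two-sided, Benjamini-Hochberg adjustment over all tested probe sets, threshold 0.05). Fold changes on this scale understate those of dim probe sets such as S100g. The fit was tested on simulated data. The number of arrays limits the precision, and levels of different probe sets were not compared.

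Members and gene lists were chosen with earlier results of these data known. Named were every member, the 5 genes of highest Pearson r to each over the arrays, and up to 4 tested genes per pathway list with the smallest unadjusted p in any comparison, each gene by its brightest probe set. S100g was given with no test in any comparison, a choice made for early pubertal against juvenile animals after the data were seen. Gene order came from RefSeq's table of GRCr8, and no coordinates were used. Summed marker levels are normalized signals without the constant. The neighbour check, the array medians and the control ratios were added after the data were seen. Alternatives covered the constant, scaling, filter, variance prior, array weights, arrays fitted and each array left out.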

Additional observations from a re-analysis of the deposited data

How the results depend on the processing

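No paired analysis was possible because the stages share no replicate number. The late pubertal values of S100g, which chose it and so say nothing of stability, ran from 0.81 to 1.33 against juvenile and from 0.83 to 1.53 against early pubertal animals over 19 alternatives. With a filter at the 60th percentile S100g gives no value. Calb1 and Pvalb kept their sign in all 20 for late pubertal against juvenile animals, and Calb1 also for late against early pubertal animals. In no alternative did Calb1, Calb2 or Pvalb pass. At the deposited level, where the median over all tested probe sets is −0.24 for early pubertal against juvenile and 0.22 for late against early pubertal animals, signs turned for Calb1 (−0.15) and Calb2 (−0.12) in the first and for Calb2 (0.080) in the second. Array weights turned Calb2 to −0.046 for early pubertal against juvenile animals. The cause was not tested. With 1 array left out, Calb2 ran from −0.21 to 0.10 for late pubertal against juvenile animals, with positive values without juvenile replicate 1 (0.10) or 3 (0.059) and without late pubertal replicate 14 (0.017) or 20 (0.011). For early pubertal against juvenile animals the ranges were −0.086 to 0.23 for Calb2, −0.00838 to 0.085 for Calb1, −0.38 to 0.24 for S100g and −0.51 to 0.24 for Pvalb. Pvalb ran from −0.073 to 0.68 for late against early pubertal animals. In place of 0, limma called 1 probe set for late pubertal against juvenile, 10 for early pubertal against juvenile and 21 for late against early pubertal animals at the deposited level, and 16 by the F test. It called 1 for late pubertal against juvenile animals with array weights and 1 without juvenile replicate 2 (range 0 to 1, also for the F test). The mean of several probe sets was not run, since each member has 1. All values of S100g are limited by its dimness.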
